A study of Homo sapiens with 24 samples.

Results

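ATF4, DDIT4 and SESN2, 3 genes of the cellular stress response, were followed together with TRIB3, CHAC1 and XBP1 across all 12 groups of a nascent transcription series in human DLD1 cells. The genes were chosen by symbol from a list of 8, of which 6 were measured. DDIT3 and ASNS were not analysed here. The 6 genes belong to 6603 genes listed in all 24 libraries, and each passed the filter on low values in both batches.

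New RNA was measured by TT-seq, which isolates RNA labelled during a brief pulse of a uridine analogue and so reads current transcription more than the standing RNA pool. DLD1 is a colorectal adenocarcinoma line. In the INTS11-dTAG line the INTS11 gene carries a knocked-in dTAG degron, and in the INTS8-dTAG line the INTS8 gene does. The N211del line is INTS8-dTAG with ectopic expression of INTS8-N211del, an altered INTS8. The small molecule dTAG13 sends dTAG-fused proteins to degradation. INTS11 is the RNA endonuclease of the Integrator complex, and INTS8 helps to hold the phosphatase PP2A in it. Batch 1 held each of the 3 lines after 3 h of dTAG13 or of its vehicle DMSO. Batch 2 was a time course of 0, 1 and 3 h of dTAG13 in the INTS11 line and the N211del line, with no vehicle group. These times are those of the sample titles, while a general treatment note in the labels gives 3 h for every sample. Every group had 2 libraries, which the labels call biological duplicates. All 3 lines carry a degron and none without a degron was given dTAG13, so an effect of dTAG13 itself and loss of the tagged protein cannot be told apart. How many clones each line stands for and which promoter drives INTS8-N211del are not given in the sources used here.

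The deposited value is a level per kilobase of gene, introns included, and is called the level below. A batch 1 library summed to 5514811 to 8114955 whole-number units behind these levels, a batch 2 library to 8709275 to 11266619. A member rested on 61 to 3031 units per library. The replicate r across genes was 0.9945 to 0.9966, and counting noise covered the difference in 7 of 12 pairs, so the p-values measure a spread that may be technical. Of 12 colorectal epithelial markers 9 were listed, and of 9 markers of other tissues only COL1A1 was listed, at 0 to 0.318. Levels are set side by side across batches without comparison, because batch 2 levels carry a library factor of 0.565 to 0.753 that batch 1 levels lack. Since batch 1 levels carry no depth factor, sequencing depth enters every batch 1 difference (5514811 and 5612470 units in the N211del DMSO libraries, 7308329 and 7416280 in those of INTS8), and depth and a change in all genes cannot be told apart. Whether a spike-in set the batch 2 factors is not stated by the sources used here. Fewer transcribing cells and less new RNA per cell also cannot be told apart.

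The integrated stress response starts with kinases that phosphorylate the translation factor eIF2, which slows most protein synthesis while the ATF4 message is translated more. ATF4 protein, paired with C/EBP family partners, then turns on genes of amino acid supply and redox balance, with DDIT4, SESN2, TRIB3 and CHAC1 among its known targets. DDIT4 (REDD1) and SESN2 both restrain the growth kinase complex mTORC1, DDIT4 through the TSC complex and SESN2 as a leucine sensor that binds GATOR2. TRIB3 is a pseudokinase that feeds back on ATF4, and CHAC1 breaks down glutathione. XBP1 belongs to a neighbouring branch of the endoplasmic reticulum stress response, in which the enzyme IRE1 splices its message. TT-seq reads how much of these genes is being transcribed and holds no measure of ATF4 protein or of XBP1 splicing.

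Promoter sequence is shown for the 4 members with a match to a stress element in the 250 bases before the RefSeq start site (GRCh38.p14). Lower case marks the context and capitals mark the match, and all are written 5′ to 3′ on the gene's own strand. DDIT4 is at chr10:72273674-72273923 (+), CHAC1 at chr15:40953221-40953470 (+), a 106-base stretch of ATF4 at chr22:39520427-39520532 (+) and a 102-base stretch of XBP1 at chr22:28800570-28800671 (−).
DDIT4: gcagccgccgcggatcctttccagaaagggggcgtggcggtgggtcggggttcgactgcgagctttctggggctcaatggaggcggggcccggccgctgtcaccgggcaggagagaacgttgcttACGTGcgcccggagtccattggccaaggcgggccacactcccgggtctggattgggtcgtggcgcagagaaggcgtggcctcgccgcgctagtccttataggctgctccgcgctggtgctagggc
CHAC1: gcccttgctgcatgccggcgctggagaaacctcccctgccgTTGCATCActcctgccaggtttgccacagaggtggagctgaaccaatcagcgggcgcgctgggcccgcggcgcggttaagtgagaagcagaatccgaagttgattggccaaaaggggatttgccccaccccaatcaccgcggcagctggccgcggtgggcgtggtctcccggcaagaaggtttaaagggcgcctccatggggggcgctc
ATF4: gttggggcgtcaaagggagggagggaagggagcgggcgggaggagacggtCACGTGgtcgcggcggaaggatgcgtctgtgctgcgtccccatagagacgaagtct
XBP1: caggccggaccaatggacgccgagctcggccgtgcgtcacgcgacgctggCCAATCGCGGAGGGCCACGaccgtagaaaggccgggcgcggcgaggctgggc
The capitals in CHAC1 are TTGCATCA, the reverse complement of the C/EBP-ATF response element TGATGNAA, which 3.19% of 27305 promoter windows of this length hold on either strand. Those in XBP1 are an endoplasmic reticulum stress element (CCAAT, any 9 bases, CCACG), held by 0.0769% of the windows. ATF4 holds an E-box, CACGTG (6.46% of windows), which also contains the hypoxia element core ACGTG on both strands. DDIT4 holds ACGTG alone (18.6% of windows), and XBP1 holds it too, on the other strand and outside the stretch printed. A cAMP response element, TGACGTCA (1.75% of windows), was matched in none of the 6, and SESN2 and TRIB3 matched none of the 5 motifs. These matches describe letters in a window and are not binding sites shown by the data.

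**Figure D1:**
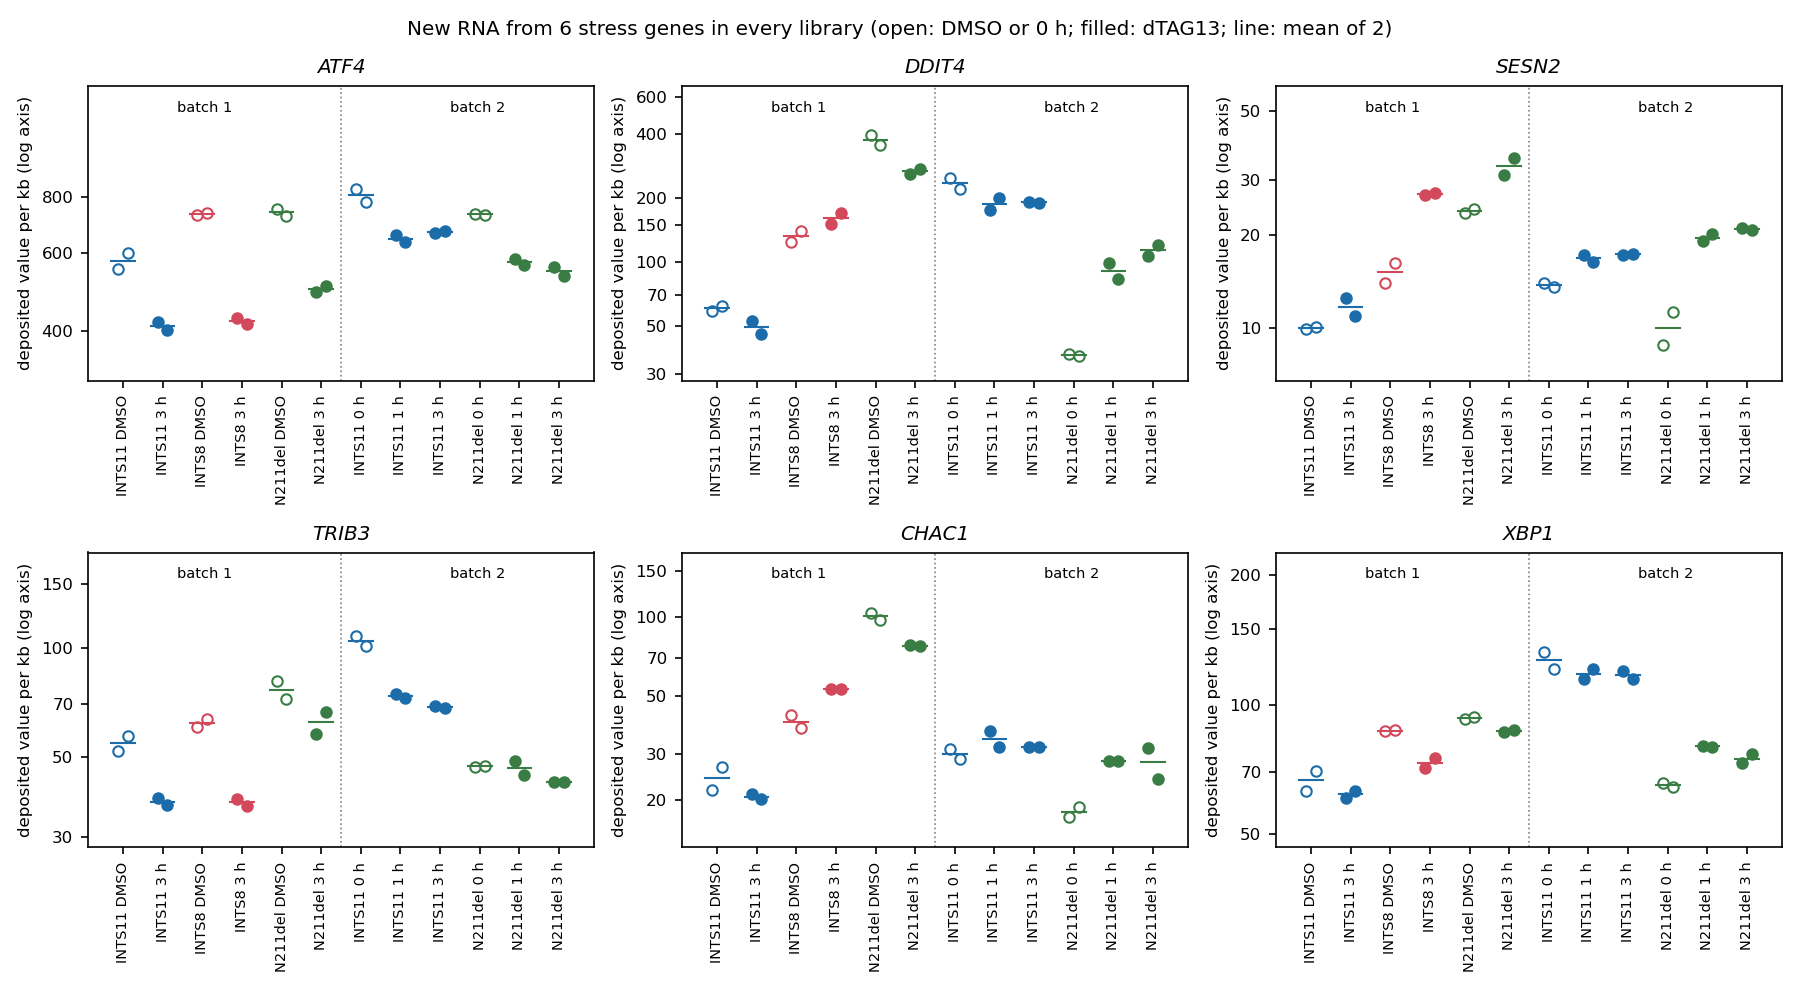
Level of each of the 6 genes (deposited value per kb, log axis) in all 24 libraries, 2 points per group, with the group mean as a line. Open points are DMSO or 0 h, filled points dTAG13, and the dotted line parts the batches. ATF4 is below its control in every treated group and SESN2 above, while DDIT4 in the N211del line starts at 358 to 397 in batch 1 and 36.1 to 37.0 in batch 2.

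ATF4, the transcription factor of the response, was transcribed less with dTAG13 in every line, batch and time tested. In the INTS11 line of batch 1 its level was 552 and 600 with DMSO and 420 and 403 with dTAG13. In the INTS8 line it went from 730 and 738 to 428 and 415, and in the N211del line from 752 and 726 to 489 and 506. Treated and control libraries did not overlap in any of the 3 lines. With 2 libraries per group such a separation can arise without a difference. The share of all genes that show it is not given, here or for the members below. The fall was 1.40-fold in the INTS11 line (log2 fold change −0.48 ± 0.06 SE, limma adjusted p = 1.13e-06), 1.74-fold in the INTS8 line (−0.80 ± 0.06, adjusted p = 8.96e-11) and 1.49-fold for the N211del line (−0.57 ± 0.06, adjusted p = 2.34e-08). At the first hour of batch 2 the fall was already there. The INTS11 line had 835 and 781 at 0 h, 658 and 633 at 1 h, and 664 and 671 at 3 h. The N211del line had 734 and 730 at 0 h, 581 and 562 at 1 h, and 557 and 533 at 3 h. Against 0 h the log2 fold change in the INTS11 line was −0.32 ± 0.04 at 1 h (limma adjusted p = 8.45e-05) and −0.27 ± 0.04 at 3 h (adjusted p = 0.000256). The N211del line gave −0.36 ± 0.04 at 1 h and −0.43 ± 0.04 at 3 h (limma adjusted p = 1.74e-05 and 7.14e-06). From 1 to 3 h the value was 0.05 ± 0.04 and −0.07 ± 0.04 in the 2 lines, and neither passed (limma adjusted p = 0.405 and 0.176). Subtracting each library's median log2 value, called centring below, made them 0.15 and 0.08 (limma adjusted p = 0.0364 and 0.074).

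Ordered by level, the ATF4 groups of batch 1 ran from INTS11 dTAG13 (403 to 420) through INTS8 dTAG13 (415 to 428), N211del dTAG13 (489 to 506) and INTS11 DMSO (552 to 600) to INTS8 DMSO (730 to 738) and N211del DMSO (726 to 752). The first 2 overlapped, as did the last 2. In batch 2 the order was N211del 3 h (533 to 557), N211del 1 h (562 to 581), INTS11 1 h (633 to 658), INTS11 3 h (664 to 671), N211del 0 h (730 to 734) and INTS11 0 h (781 to 835). No neighbours overlapped there, although 1 h and 3 h of a line did not differ by the test. Per kilobase ATF4 stood above 99.9% of genes in batch 1 and 99.8% in batch 2. Its reads are uncertain in one respect, since 4 pseudogenes are named for it (ATF4P1 to ATF4P4), and the sources used here do not say how shared reads were assigned.

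DDIT4, the mTORC1 inhibitor, moved in opposite directions between lines. In the INTS11 line of batch 1 it was 59.2 and 62.5 with DMSO and 53.0 and 45.9 with dTAG13, and in the INTS8 line it was 125 and 141, then 152 and 171. In the N211del line it was 397 and 358 with DMSO and 260 and 275 with dTAG13. No treated library overlapped its controls, which with 2 unpaired libraries per group is a weak separation. The log2 fold change was −0.30 ± 0.08 in the INTS11 line (limma adjusted p = 0.00907), 0.28 ± 0.08 in the INTS8 line (adjusted p = 0.00916) and −0.49 ± 0.08 for the N211del line (adjusted p = 7.97e-05). The INTS11 call was lost without INTS11 DMSO replicate 2 (−0.26) or dTAG13 replicate 2 (−0.20). The INTS8 call was lost without INTS8 DMSO replicate 1 or dTAG13 replicate 2 (0.19 for both) and on centring (0.17, limma adjusted p = 0.13).

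In batch 2 DDIT4 of the N211del line rose from the first hour, and that of the INTS11 line fell. The N211del line had 37.0 and 36.1 at 0 h, 99.0 and 83.2 at 1 h, and 107 and 121 at 3 h. No libraries of these 3 time points overlapped, and DDIT4 is the member with the largest response to dTAG13 in the series. The rise was 2.48-fold at 1 h (log2 fold change 1.31 ± 0.10, limma adjusted p = 1.89e-06) and 3.10-fold at 3 h (1.63 ± 0.10, adjusted p = 5.61e-07). From 1 to 3 h it was 0.32 ± 0.10 (limma adjusted p = 0.0272), the one call among the 6 members between these times, lost without N211del 1 h replicate 2 (0.20) or 3 h replicate 2 (0.23). The INTS11 line had 249 and 221 at 0 h, 177 and 201 at 1 h, and 193 and 191 at 3 h. Its 1 h and 3 h levels overlapped and both were below 0 h. The log2 fold change against 0 h was −0.31 ± 0.10 at 1 h (limma adjusted p = 0.0204) and −0.29 ± 0.10 at 3 h (adjusted p = 0.0292). The 1 h call was lost without INTS11 0 h replicate 1 (−0.23) or 1 h replicate 1 (−0.22), and the 3 h call without 0 h replicate 1 (−0.20), 3 h replicate 1 (−0.30) or 3 h replicate 2 (−0.28).

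The DDIT4 order of batch 1 was INTS11 dTAG13 (45.9 to 53.0), INTS11 DMSO (59.2 to 62.5), INTS8 DMSO (125 to 141), INTS8 dTAG13 (152 to 171), N211del dTAG13 (260 to 275) and N211del DMSO (358 to 397), with no overlap. The lines with DMSO were set apart by more than any response in this batch. Over the 6 groups of a batch DDIT4 spanned 7.63-fold in batch 1 and 6.41-fold in batch 2, more than 98.6% and 98.5% of 6269 genes. CHAC1 spanned 4.87-fold in batch 1 (more than 96.4% of genes) and 1.9-fold in batch 2 (67.8%). ATF4 spanned 1.80-fold and 1.48-fold (67.8% and 35.3% of genes).

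SESN2, the leucine sensor upstream of mTORC1, was higher in all treated libraries than in their controls. In batch 1 it was 9.97 and 10.1, then 12.5 and 11.0 in the INTS11 line, and 14.0 and 16.3, then 27.0 and 27.3 in the INTS8 line. In the N211del line it was 23.5 and 24.3, then 31.3 and 35.5. The rise was 1.79-fold in the INTS8 line (log2 fold change 0.84 ± 0.09, limma adjusted p = 4.32e-08) and 1.39-fold for the N211del line (0.48 ± 0.09, adjusted p = 8.87e-05). With each library centred these values were 0.73 and 0.22 (limma adjusted p = 1.72e-05 and 0.026). The median gene was 0.06 higher in the INTS8 line and 0.21 higher in the N211del line. In the INTS11 line the difference, 0.22 ± 0.09, missed the threshold (limma adjusted p = 0.053). It passed without INTS11 dTAG13 replicate 2 (0.31, limma adjusted p = 0.0325) and with each library centred (0.25, adjusted p = 0.0163).

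In batch 2 SESN2 of the INTS11 line was 14.0 and 13.6 at 0 h, 17.3 and 16.4 at 1 h, and 17.3 and 17.4 at 3 h. The N211del line had 8.83 and 11.3 at 0 h, 19.1 and 20.1 at 1 h, and 21.1 and 20.8 at 3 h. The N211del line thus started below the INTS11 line and ended above it, with most of the change in the first hour. The log2 fold change against 0 h in the N211del line was 0.97 ± 0.09 at 1 h (limma adjusted p = 8.7e-06) and 1.06 ± 0.09 at 3 h (adjusted p = 6.37e-06). In the INTS11 line it was 0.28 ± 0.09 at 1 h (limma adjusted p = 0.0231) and 0.33 ± 0.09 at 3 h (adjusted p = 0.012). The INTS11 call at 1 h was lost without any one of its 4 libraries (0.25 to 0.32) and with each library centred (0.13, limma adjusted p = 0.18). The call at 3 h was lost without 0 h replicate 2 (0.31) or 3 h replicate 2 (0.33). By level SESN2 of batch 1 ran in the order INTS11 DMSO, INTS11 dTAG13, INTS8 DMSO, N211del DMSO, INTS8 dTAG13 and N211del dTAG13, with no overlap between neighbours.

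TRIB3, the pseudokinase that feeds back on ATF4, fell with ATF4 in each response to dTAG13 except that of the N211del line at 1 h. In batch 1 it was 51.8 and 57.0, then 38.3 and 36.7 in the INTS11 line, and 60.5 and 63.5, then 38.2 and 36.5 in the INTS8 line. For the N211del line it was 81.1 and 72.0, then 57.9 and 66.4. The log2 fold change was −0.54 ± 0.08 in the INTS11 line (limma adjusted p = 1.49e-05), −0.73 ± 0.08 in the INTS8 line (adjusted p = 5.45e-08) and −0.30 ± 0.08 for the N211del line (adjusted p = 0.00251). The N211del call was lost without N211del DMSO replicate 1 (−0.21) or dTAG13 replicate 1 (−0.20). In batch 2 the INTS11 line had 108 and 101 at 0 h, 74.6 and 72.6 at 1 h, and 69.2 and 68.0 at 3 h. That fall was −0.51 ± 0.05 at 1 h (log2 fold change, limma adjusted p = 2.03e-05) and −0.61 ± 0.05 at 3 h (adjusted p = 9.38e-06). The N211del line had 46.9 and 47.0, then 48.6 and 44.5, then 42.4 and 42.6. Its value was −0.01 ± 0.05 at 1 h (limma adjusted p = 0.816), or −0.36 with each library centred (adjusted p = 5.47e-05), against a median gene 0.31 higher at that time. At 3 h it was −0.14 ± 0.05 (limma adjusted p = 0.0216), a call lost without any one of the 4 libraries (−0.15 to −0.14). With each library centred the 3 h value was −0.34 (limma adjusted p = 8.26e-05), against a median gene 0.18 higher.

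CHAC1, the glutathione-degrading enzyme, had the sign of DDIT4 in each response against its control except in the INTS11 line of batch 2. In batch 1 it was 21.7 and 26.6, then 21.0 and 20.1 in the INTS11 line, and 42.1 and 37.5, then 52.9 and 52.9 in the INTS8 line. Levels in the N211del line were 104 and 97.3, then 77.9 and 77.3. The log2 fold change was −0.23 ± 0.08 in the INTS11 line (limma adjusted p = 0.0362), 0.41 ± 0.08 in the INTS8 line (adjusted p = 0.000233) and −0.37 ± 0.08 for the N211del line (adjusted p = 0.000689). The INTS11 value rests on single libraries and on the scaling, at −0.37 without DMSO replicate 1, which kept the call, and at −0.08 without DMSO replicate 2, −0.26 without dTAG13 replicate 1 and −0.19 without dTAG13 replicate 2 or with each library centred, which lost it. In batch 2 the N211del line had 17.1 and 18.8 at 0 h, 28.2 and 28.1 at 1 h, and 31.6 and 24.0 at 3 h. The rise was 1.57-fold at 1 h (log2 fold change 0.65 ± 0.12, limma adjusted p = 0.000742) and 1.53-fold at 3 h (0.62 ± 0.12, adjusted p = 0.00129). The INTS11 line had 31.2 and 28.6, then 36.6 and 31.7, then 31.8 and 31.8, which gave 0.19 ± 0.12 at 1 h and 0.09 ± 0.12 at 3 h (limma adjusted p = 0.19 and 0.536).

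XBP1, the transcription factor of the IRE1 branch, varied least in batch 1, where its 6 groups spanned 1.50-fold. It was 63.2 and 70.3, then 60.7 and 63.2 in the INTS11 line, 87.0 and 87.2, then 71.4 and 75.3 in the INTS8 line, and 92.5 and 93.8, then 86.5 and 87.5 in the N211del line. Of these the INTS8 fall was called (log2 fold change −0.25 ± 0.07, limma adjusted p = 0.00284), and the INTS11 and N211del values were −0.11 ± 0.07 and −0.10 ± 0.07 (adjusted p = 0.212 and 0.207). With each library centred the N211del value was −0.36 (limma adjusted p = 0.00128). In batch 2 the INTS11 line had 133 and 121, then 115 and 121, then 120 and 115, a difference of −0.10 ± 0.05 at 1 h and −0.11 ± 0.05 at 3 h (limma adjusted p = 0.0969 and 0.0911). Levels in the N211del line were 65.9 and 64.4, then 80.3 and 80.0, then 73.2 and 76.7. These were higher by 0.30 ± 0.05 at 1 h (limma adjusted p = 0.000368) and 0.20 ± 0.05 at 3 h (adjusted p = 0.00518). Neither held with each library centred (−0.05 at 1 h and 0.01 at 3 h), and the median gene was 0.31 and 0.18 higher at these times. XBP1 has 1 named pseudogene, XBP1P1.

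Counted over the members, 3 h of dTAG13 against DMSO left 4 of 6 lower and 0 higher by limma in the INTS11 line (1 higher at an unadjusted p under 0.05; 2 lower and 1 higher by voom, 3 and 1 centred), where 19.8% of 6579 genes were called lower and 19.4% higher. In the INTS8 line 3 were lower (ATF4, TRIB3 and XBP1) and 3 higher (DDIT4, SESN2 and CHAC1), beside 21.0% and 34.6% of all genes. In the N211del line 4 were lower and 1, SESN2, higher, beside 7.10% and 48.5%. With each library centred the N211del line had 5 members lower and 1 higher, beside 35.2% and 26.9% of genes, and the INTS8 line 3 and 2, beside 36.4% and 30.7%. Of 6950 genes in batch 2, 55.9% were called in the INTS11 line at 1 h and 71.0% in the N211del line. The INTS11 line had 3 members lower and 1 higher at 1 h (9.86% and 46.0% of genes) and as many at 3 h (19.3% and 36.0%). Centring made this 4 lower and 0 higher at 1 h (30.3% and 29.0% of genes), with XBP1 called and SESN2 lost, and 4 lower and 1 higher at 3 h (28.9% and 31.8%), with XBP1 called. The N211del line had 1 lower and 4 higher at 1 h (4.92% and 66.0%), and 2 lower and 4 higher at 3 h (13.8% and 49.7%). Centring made both 2 lower and 3 higher (36.1% and 29.5% of genes at 1 h, 35.1% and 30.9% at 3 h), with TRIB3 called at 1 h and XBP1 lost at both times. The 4 calls of the INTS11 line became 2 without DMSO replicate 2 in batch 1, at 1 h without 0 h replicate 1 or 1 h replicate 1, and at 3 h without 3 h replicate 2. From 1 to 3 h, limma called 0 of 6 members in the INTS11 line (0 at an unadjusted p under 0.05, 1 by voom), beside 15.1% of genes lower and 0.475% higher, 15.6% in all. In the N211del line it called 1 of 6, DDIT4, beside 35.0% of genes lower and 2.20% higher, 37.2% in all. The 1083 genes behind the 15.6% became 1 without INTS11 1 h replicate 1 or 3 h replicate 1 and 3 without 3 h replicate 2. Those behind the 37.2%, 2583, became 1391 without N211del 3 h replicate 2, 1527 without 1 h replicate 1 and 1540 without 1 h replicate 2. After 3 h against DMSO the INTS11 line had 2575 genes called, or 1686 without dTAG13 replicate 2. The 1 h and 3 h comparisons of a line share their 0 h libraries. The median gene moved by 0.21 in the N211del line of batch 1 and by 0.16 (INTS11, 1 h), 0.31 (N211del, 1 h) and 0.18 (N211del, 3 h) in batch 2, all on the log2 scale. In these 4 comparisons ATF4 fell against the median gene and the SESN2 value exceeded it.

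**Figure D2:**
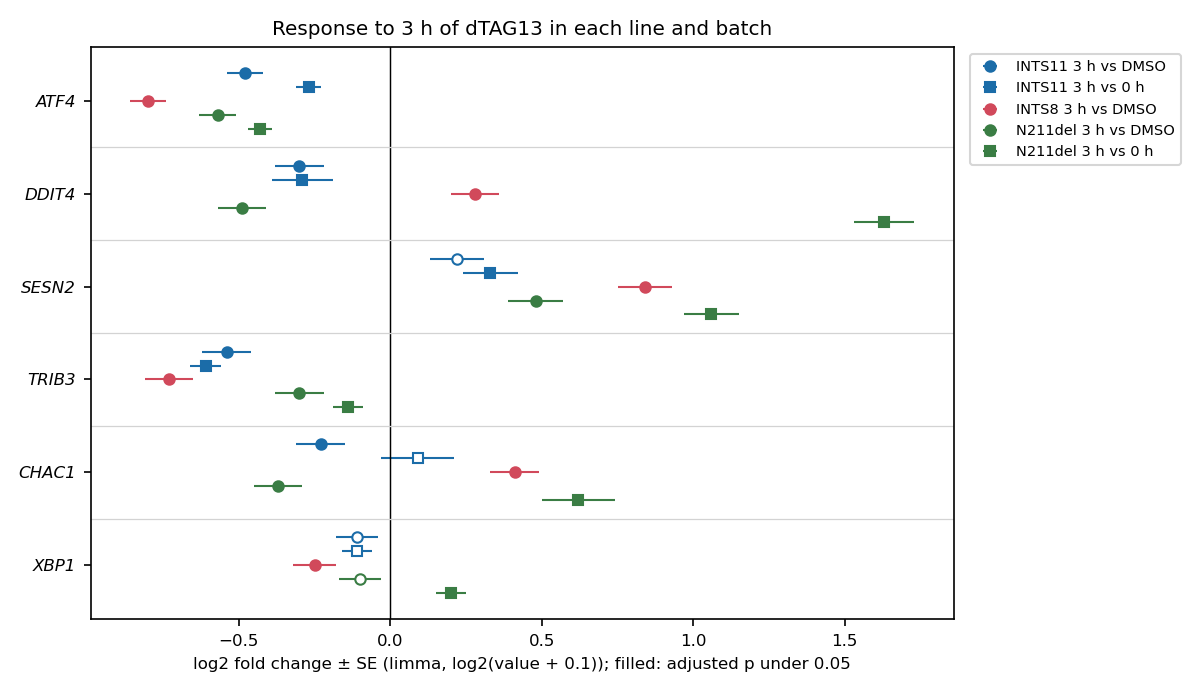
Log2 fold change of each gene after 3 h of dTAG13 (± SE, limma), by line (colour) and batch (circle, against DMSO; square, against 0 h), with filled symbols for adjusted p under 0.05. All 5 ATF4 values lie left of 0 and all 5 SESN2 values right of it, and DDIT4 runs from −0.49 to 1.63 within the N211del line.

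The lines were then compared by the difference of their responses, tested as such. Between the INTS11 and INTS8 lines 4 of 6 members differed in batch 1, beside 25.4% of all genes (19.4% of genes lower; centred, 17.1% lower and 20.9% higher). ATF4 fell less in the INTS11 line (difference 0.31 ± 0.08 on the log2 scale, limma adjusted p = 0.00618), and DDIT4, SESN2 and CHAC1 were lower there relative to their response in the INTS8 line. Their differences were −0.58 ± 0.12 (limma adjusted p = 0.00136), −0.62 ± 0.13 (adjusted p = 0.00071) and −0.64 ± 0.12 (adjusted p = 0.000281). TRIB3 (0.19 ± 0.11) and XBP1 (0.14 ± 0.09) were not called, and with each library centred both were (0.33 and 0.28, limma adjusted p = 0.00793 and 0.0437).

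In batch 1 the INTS8 and N211del lines differed in response in 3 of 6 members, beside 11.1% of genes. By direction 2.01% of genes were higher and 9.04% lower (7.13% and 4.36% centred). DDIT4 and CHAC1 responded more upward in the INTS8 line, by 0.77 ± 0.12 (limma adjusted p = 0.00133) and 0.78 ± 0.12 (adjusted p = 0.000454), and TRIB3 more downward, by −0.43 ± 0.11 (adjusted p = 0.022). The N211del responses behind these differences were −0.49 for DDIT4 and −0.37 for CHAC1. At 3 h in batch 2 the N211del line gave 1.63 and 0.62 for these genes. Batch 2 held no INTS8 line, so the difference was not tested there. The TRIB3 call was lost without any one of 4 libraries (INTS8 DMSO replicate 2, N211del DMSO replicate 2, INTS8 dTAG13 replicate 2 or N211del dTAG13 replicate 2; −0.40 to −0.33). ATF4 differed by −0.23 ± 0.08 and SESN2 by 0.36 ± 0.13, just outside the threshold (limma adjusted p = 0.0668 and 0.0612). SESN2 was called on centring (0.52, limma adjusted p = 0.0151) and by voom (0.51, adjusted p = 1.86e-05), and ATF4 without N211del dTAG13 replicate 1 (−0.25, adjusted p = 0.0331), so the count of 3 changed to 4 under each of these. The number of genes called in this comparison, 727, was 2522 without N211del dTAG13 replicate 1. Without any one of the other libraries of the 2 lines except INTS8 dTAG13 replicate 1 it was 181 (INTS8 dTAG13 replicate 2) to 307 (INTS8 DMSO replicate 1), so the 11.1% depends on single libraries.

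Between the INTS11 and N211del lines of batch 1 0 of 6 members differed in response by limma (1 at an unadjusted p under 0.05, 4 by voom), beside 48.5% of genes (4.80% higher and 43.7% lower; centred, 18.8% and 15.1%). ATF4 differed by 0.09 ± 0.08 and DDIT4 by 0.19 ± 0.12 (limma adjusted p = 0.39 and 0.187). With each library centred 4 members were called, ATF4 at 0.38, DDIT4 at 0.49, CHAC1 at 0.44 and XBP1 at 0.29. Leaving out 1 library gave 0 to 2 calls, with TRIB3 (−0.33) and SESN2 (−0.35) passing without N211del dTAG13 replicate 1, TRIB3 without INTS11 DMSO replicate 1 (−0.30) or N211del DMSO replicate 1 (−0.32), CHAC1 without INTS11 DMSO replicate 2 (0.29), SESN2 without INTS11 dTAG13 replicate 1 (−0.35) and DDIT4 without INTS11 dTAG13 replicate 2 (0.30). In batch 2 the same pair of lines differed in 5 of 6 members at 1 h, beside 48.6% of genes (9.24% higher and 39.3% lower; centred, 25.8% and 22.3%), and in 6 of 6 at 3 h, beside 50.9% (15.2% and 35.8%; centred, 28.7% and 25.2%). DDIT4 led, with −1.62 ± 0.14 at 1 h (limma adjusted p = 2.46e-05) and −1.92 ± 0.14 at 3 h (adjusted p = 8.01e-06). SESN2 followed with −0.68 ± 0.13 and −0.73 ± 0.13 (limma adjusted p = 0.00191 and 0.00122), and TRIB3 with −0.49 ± 0.06 and −0.46 ± 0.06 (adjusted p = 0.000253 and 0.000323). CHAC1 had −0.46 ± 0.16 and −0.53 ± 0.16 (limma adjusted p = 0.0443 and 0.0245), and both calls were lost with each library centred (−0.26 and −0.38). XBP1 had −0.40 ± 0.07 and −0.31 ± 0.07 (limma adjusted p = 0.00113 and 0.00476), the second lost on centring (−0.17). ATF4 had 0.03 ± 0.05 at 1 h (limma adjusted p = 0.627), or 0.23 with each library centred (adjusted p = 0.00208), and 0.15 ± 0.05 at 3 h (adjusted p = 0.0384). The ATF4 call at 3 h was lost without any one library (0.10 to 0.16) except INTS11 0 h replicate 1 and N211del 3 h replicate 1. The CHAC1 call at 1 h was lost without any one library (−0.52 to −0.36) except INTS11 1 h replicate 1 and N211del 0 h replicate 2. At 3 h the CHAC1 call was lost without replicate 1 of INTS11 0 h, INTS11 3 h or N211del 0 h or replicate 2 of INTS11 3 h (−0.53 to −0.46), and its value was −0.33 without N211del 3 h replicate 1.

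Without dTAG13 the lines themselves differed in these genes. With DMSO all 6 members were higher in the N211del line than in the INTS11 line, where 65.5% of genes were called, 19.7% higher and 45.9% lower (36.8% and 31.4% centred). DDIT4 was 6.19-fold higher (log2 difference 2.63 ± 0.08, limma adjusted p = 1.24e-13), CHAC1 4.16-fold (2.06 ± 0.08, adjusted p = 1.75e-14) and SESN2 2.36-fold (1.24 ± 0.09, adjusted p = 1.73e-10). TRIB3, XBP1 and ATF4 were higher by 0.49 ± 0.08, 0.48 ± 0.07 and 0.36 ± 0.06 (limma adjusted p = 1.23e-05, 1.7e-06 and 1.34e-05). Between the INTS8 and INTS11 lines 5 of 6 were higher with DMSO in the INTS8 line (26.8% of genes higher and 3.91% lower, 30.7% in all; 21.2% higher centred), with DDIT4 at 2.18-fold (1.13 ± 0.08, adjusted p = 1.28e-08), and TRIB3, at 0.19 ± 0.08, was not called (limma adjusted p = 0.0733; 0.26 and called without INTS11 DMSO replicate 2). Between the N211del and INTS8 lines 4 of 6 were higher in N211del (5.03% of genes higher and 58.7% lower, 63.7% in all; 26.3% higher centred). DDIT4 was 2.84-fold higher there (1.50 ± 0.08, limma adjusted p = 2.73e-09) and CHAC1 2.52-fold (1.34 ± 0.08, adjusted p = 1.13e-09). TRIB3 was higher by 0.30 ± 0.08 (limma adjusted p = 0.00194), a call lost without N211del DMSO replicate 1 (0.22). ATF4 stood at 0.01 ± 0.06 and XBP1 at 0.10 ± 0.07 (limma adjusted p = 0.891 and 0.201), and both were called on centring (0.32 and 0.41, limma adjusted p = 0.000594 and 0.00114) and by voom, which makes 6 of 6. The median gene was 0.30 lower in N211del.

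At 0 h of batch 2 the order of the lines was turned round. All 6 members were lower in the N211del line than in the INTS11 line, beside 31.6% of genes lower and 38.4% higher. DDIT4 was 6.41-fold lower (log2 difference −2.68 ± 0.10, limma adjusted p = 3.43e-08), TRIB3 2.22-fold (−1.15 ± 0.05, adjusted p = 4.49e-08) and XBP1 1.95-fold (−0.96 ± 0.05, adjusted p = 1.97e-07). CHAC1, SESN2 and ATF4 differed by −0.73 ± 0.12, −0.47 ± 0.09 and −0.14 ± 0.04 (limma adjusted p = 0.000359, 0.00123 and 0.00699), with the ATF4 call lost without INTS11 0 h replicate 1 (−0.09) and SESN2 at −0.29 without N211del 0 h replicate 1. So each of the 6 genes was higher in the N211del line with DMSO in batch 1 and lower in it at 0 h in batch 2. The controls also differ (3 h of DMSO or none), so line, batch, vehicle and handling cannot be told apart in these baselines.

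**Figure D3:**
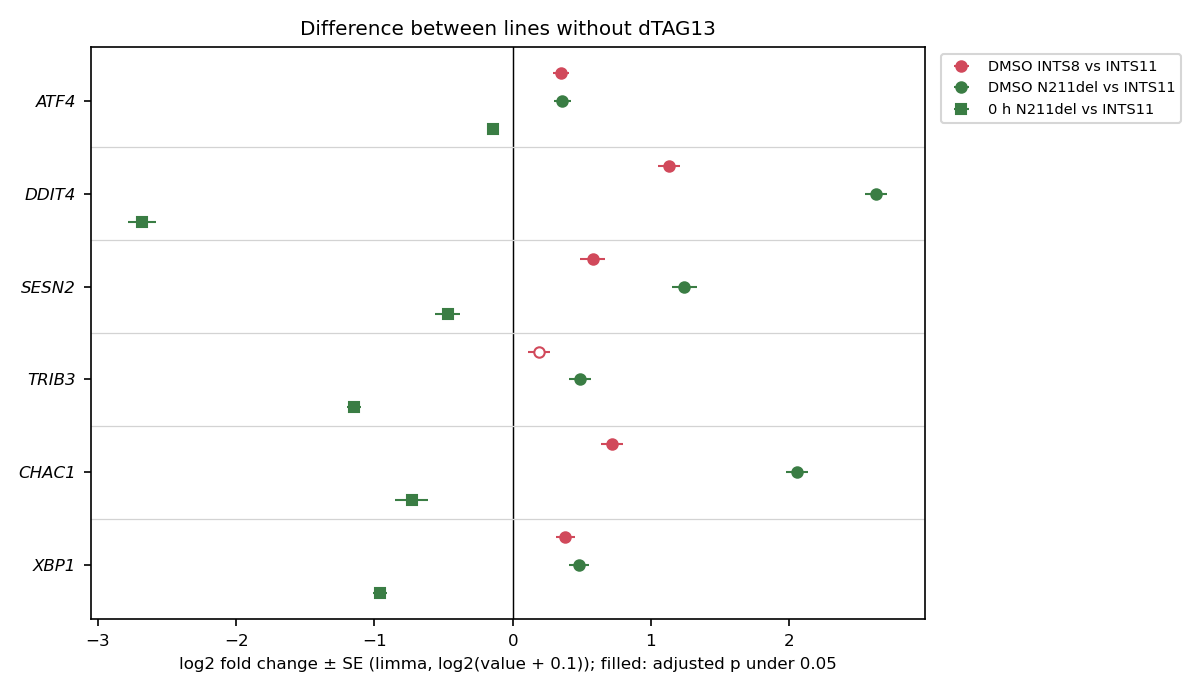
Log2 difference between lines without dTAG13 (± SE, limma) for INTS8 against INTS11 with DMSO (red), N211del against INTS11 with DMSO (green circles) and N211del against INTS11 at 0 h (green squares), filled where adjusted p is under 0.05. The N211del circles lie right of 0 and the squares left of it for every gene, furthest apart for DDIT4 at 2.63 and −2.68.

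The 3 h response itself was set between batches in 1 fit of all 24 libraries over 6569 genes, an analysis added after the data were seen. In the N211del line 4 of 6 members responded differently, beside 2.68% of genes. The batch 1 response minus that of batch 2 was −2.13 ± 0.14 for DDIT4 (limma adjusted p = 5.81e-07), −0.99 ± 0.16 for CHAC1 (adjusted p = 0.0028), −0.59 ± 0.13 for SESN2 (adjusted p = 0.02) and −0.30 ± 0.08 for XBP1 (adjusted p = 0.0401). DDIT4 and CHAC1 were called in both batches with opposite signs, and SESN2 rose in both. ATF4 (−0.15 ± 0.06) and TRIB3 (−0.16 ± 0.10) were not called (limma adjusted p = 0.23 and 0.375). In the INTS11 line ATF4 alone differed, by −0.21 ± 0.06 (limma adjusted p = 0.0438), beside 10.7% of genes, and DDIT4 differed by −0.01 ± 0.14 (adjusted p = 0.971). Libraries were not centred in this fit, and the controls of the batches differ (3 h of DMSO or 0 h). With each library centred, ATF4 was −0.45 and −0.33 in the INTS11 line of batches 1 and 2. In the N211del line it was −0.83 and −0.62, and these centred values were not tested between batches. For both DDIT4 and CHAC1 the N211del control was the highest of the 6 groups of batch 1 and the lowest of the 6 groups of batch 2, and its part in the difference was not tested.

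Across the 12 group means, centred within each batch, the members were compared pair by pair with Pearson r. These r values describe groups that share libraries and depth, and carry no p. ATF4 had r = 0.76 with TRIB3, 0.48 with XBP1, 0.32 with DDIT4, 0.27 with CHAC1 and −0.24 with SESN2. Some of these differed between batches 1 and 2 taken apart. For ATF4, r was −0.06 and −0.80 with SESN2, 0.37 and −0.20 with CHAC1, 0.42 and 0.12 with DDIT4, 0.70 and 0.41 with XBP1, and 0.88 and 0.72 with TRIB3. DDIT4 went with CHAC1 (0.92), XBP1 (0.87), SESN2 (0.73) and TRIB3 (0.69), SESN2 with CHAC1 (0.84) and TRIB3 with XBP1 (0.87). Of these, DDIT4 with SESN2 had r = 0.87 in batch 1 and 0.49 in batch 2, and SESN2 with CHAC1 had 0.88 and 0.71. Among 6269 genes the 5 nearest to ATF4 were LHPP (r = 0.965), the translation start factor gene EIF1 (0.962), SMIM7 (0.934), A3GALT2 (0.928) and SH3BP4 (0.907). Nearest to DDIT4 were LEMD2 (0.933), the kinase gene NUAK2 (0.916), CHAC1 (0.915), ST6GALNAC4 (0.911) and GRAMD4 (0.909). Among the nearest to SESN2 were BTBD11 (0.966), the cell cycle inhibitor CDKN1C (0.954), the immediate early gene IER5 (0.952) and PTMS (0.951). Lists of nearest genes were made for ATF4, DDIT4 and SESN2 alone.

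Other genes of the pathway were read from 8 lists in 5 comparisons, 3 h of dTAG13 in the 3 lines of batch 1 and the 2 lines of batch 2. With each library centred, 26.1% to 31.8% of all genes were called higher and 24.5% to 36.4% lower in these comparisons. Other partners and targets of ATF4 and CHOP numbered 13 per batch, with NIBAN1 in batch 1 alone and FGF21 in batch 2 alone. Of these 13, 5 to 10 were higher and 0 or 1 lower in each comparison (5 to 8 and 0 to 3 with each library centred). Their median log2 fold change was 0.24, 0.37 and 0.38 in the INTS11, INTS8 and N211del lines of batch 1, and 0.42 and 0.79 in the INTS11 and N211del lines of batch 2. The medians of all genes were −0.03, 0.06, 0.21, 0.08 and 0.18 in the same order. ATF3, a stress-induced factor of the same family, was called higher in all 5, with 0.58 ± 0.08 in the INTS11 line and 2.27 ± 0.08 in the INTS8 line of batch 1 (limma adjusted p = 4.53e-06 and 2.17e-16). BCL2L11, the cell death gene BIM, had the largest rise of the list in the N211del line, 1.75 ± 0.07 in batch 1 and 1.91 ± 0.05 in batch 2 (limma adjusted p = 2.85e-15 and 2.05e-09). FGF21, a secreted stress hormone, led in the INTS11 line of batch 2 with a wide error, 1.97 ± 0.64 (limma adjusted p = 0.027). TXNIP, an inhibitor of thioredoxin, fell by 0.58 in the INTS8 line, by 0.81 in the N211del line of batch 1 and by 0.83 in the INTS11 line of batch 2. It rose in the N211del line of batch 2, by 0.60 ± 0.15 (limma adjusted p = 0.00667). The list held more higher than lower genes in each of the 5 comparisons. So did all genes in 4 of them (34.6% higher and 21.0% lower in the INTS8 line, 48.5% and 7.10% in the N211del line, 36.0% and 19.3% and 49.7% and 13.8% in the INTS11 and N211del lines of batch 2), the exception being the INTS11 line of batch 1 (19.4% and 19.8%).

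The amino acid genes did not move as one. Of 10 synthesis genes 2 to 5 were higher and 0 to 4 lower (centred, 2 to 5 and 2 to 6). In the N211del line the split turned on centring, from 2 higher and 0 lower to 2 and 6 in batch 1. CTH, which makes cysteine from cystathionine, rose by 1.60 ± 0.11 in the INTS8 line and by 1.45 ± 0.11 and 1.54 ± 0.05 in the N211del line of batches 1 and 2 (limma adjusted p = 3.27e-11, 1.9e-10 and 8.67e-09). It was also called higher in the INTS11 line, by 0.49 ± 0.11 in batch 1 and 0.54 ± 0.05 in batch 2 (limma adjusted p = 0.00113 and 2.13e-05). MTHFD1L, of mitochondrial folate metabolism, fell by 0.41 in the INTS11 line and by 0.47 in the INTS8 line of batch 1, and by 0.38 in the N211del line of batch 2. It was not called in the N211del line of batch 1 (−0.11) or the INTS11 line of batch 2 (0.00). Of 8 transporter genes 2 to 7 were higher and 0 to 2 lower (centred, 1 to 4 and 0 to 4). SLC43A1, a neutral amino acid transporter, led the rise at 0.59 in the INTS11 line, 0.94 in the INTS8 line, and 0.91 and 1.23 in the N211del line of batches 1 and 2. The list of cytosolic tRNA synthetase genes, which also holds the tRNA export gene XPOT, leaned the other way. Of its 9 genes 2 to 6 were lower and 0 higher in 4 comparisons. In the N211del line of batch 2, 3 were higher (LARS1, NARS1 and XPOT) and 1 lower. With each library centred 6 to 9 of them were lower in every comparison and 1 higher in the last. Examples are CARS1 at −0.35 ± 0.07 in the INTS11 line (limma adjusted p = 0.000662) and SARS1 at −0.39 ± 0.09 in the INTS8 line (adjusted p = 0.000996).

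Upstream of ATF4, the list of eIF2 and its control held 10 tested genes (eIF2 and eIF2B subunits, PPP1R15A, PPP1R15B, GCN1, IMPACT and DELE1), and the eIF2 kinases themselves were not analysed here. Of the 10, 1 or 2 were higher and 0 to 4 lower (centred, 0 or 1 and 5 to 8). Beside them 19.4% to 49.7% of all genes were higher and 7.10% to 21.0% lower (centred, 26.1% to 31.8% and 24.5% to 36.4%). PPP1R15A (GADD34), which directs eIF2 dephosphorylation, rose by 0.28 ± 0.08 in the INTS8 line (limma adjusted p = 0.00379, or 0.17 and not called when centred) and by 0.18 ± 0.05 in the INTS11 line of batch 2 (adjusted p = 0.0113). It was not called in the INTS11 line of batch 1 (−0.14) or the N211del line (0.16 and −0.04 in batches 1 and 2). EIF2S3, a subunit of eIF2, fell by 0.42 in the INTS11 line and by 0.29 in the INTS8 line of batch 1 and by 0.19 and 0.11 in the INTS11 and N211del lines of batch 2, and was not called in the N211del line of batch 1 (−0.04). The list of the XBP1 and ATF6 branches held 14 endoplasmic reticulum genes, among them ATF6 itself, ERN1 (IRE1), which acts on XBP1, and the proteases MBTPS1 and MBTPS2, which act on ATF6. Of these 14, 5, 6 and 8 were higher and 2, 1 and 3 lower in the INTS8 line and the N211del line of batches 1 and 2 (centred, 5, 2 and 4 higher and 5, 6 and 4 lower). The INTS11 line had 0 and 2 of them higher and 1 and 5 lower in batches 1 and 2. HERPUD1, of endoplasmic reticulum protein disposal, rose by 0.77 ± 0.07 in the INTS8 line and by 0.50 ± 0.07 and 1.08 ± 0.04 for the N211del line (limma adjusted p = 4.72e-09, 2.54e-06 and 3.08e-08). In the INTS11 line of batch 2 it fell by 0.27.

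Around DDIT4 and SESN2, the mTORC1 list had 0 to 4 of 14 genes higher and 1 to 4 lower (centred, 1 or 2 and 6 to 9). DEPTOR, another mTOR inhibitor, rose by 1.48 ± 0.16 in the INTS8 line and by 1.31 ± 0.16 and 0.94 ± 0.14 for the N211del line (limma adjusted p = 9.38e-08, 5.64e-07 and 0.000232). TSC1, through whose complex DDIT4 acts, was called lower in all 5, with −0.56 in the INTS11 line of batch 1, −0.69 in that of batch 2, −0.32 in the INTS8 line and −0.32 and −0.18 in the N211del line of batches 1 and 2. The list of NRF2 and oxidative stress held 13 tested genes, among them NFE2L2, which is NRF2 itself, and its inhibitor KEAP1. Of the 13, 2 to 6 were higher and 2 to 8 lower (centred, 1 to 4 and 2 to 9). KEAP1 was among the higher genes in all 5 comparisons before centring. OSGIN1 was called higher in each of the 5 comparisons, by 0.71, 1.62 and 1.20 in the INTS11, INTS8 and N211del lines of batch 1 and by 0.52 and 1.64 in the 2 lines of batch 2. NQO1, a quinone reductase of the same list, fell by 0.58 in the INTS8 line, by 0.39 in the INTS11 line of batch 2 and by 0.26 and 0.15 in the N211del line of batches 1 and 2, and was not called in the INTS11 line of batch 1 (−0.05). Across all genes 39.1%, 55.6% and 55.6% were called in the INTS11, INTS8 and N211del lines of batch 1 and 55.4% and 63.5% in the 2 lines of batch 2. Those shares count calls in either direction. By direction, 19.4% to 49.7% of genes were higher and 7.10% to 21.0% lower (centred, 26.1% to 31.8% and 24.5% to 36.4%). The counts describe the lists, and whether any list stands apart from all genes was not tested.

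**Figure D4:**
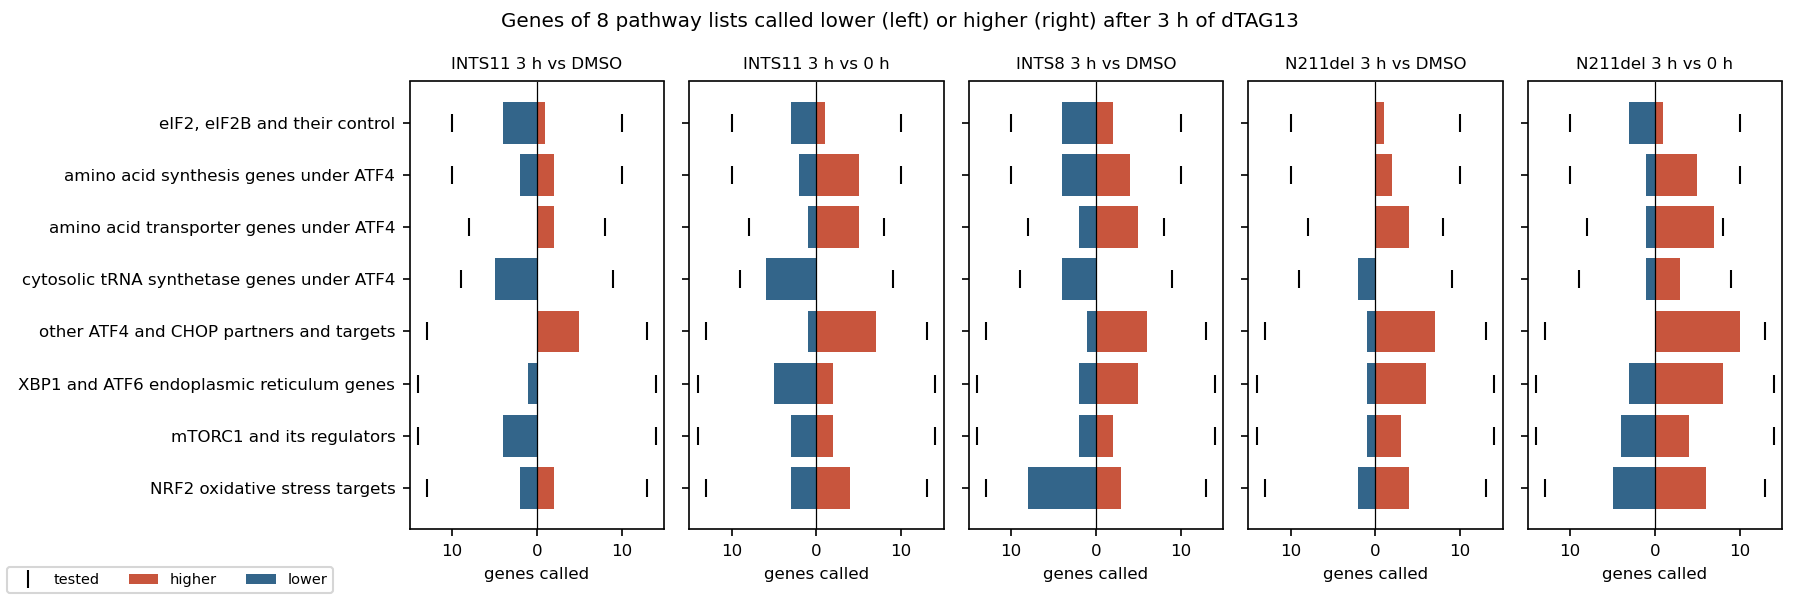
Number of genes of each of the 8 lists called higher (red, right) or lower (blue, left) after 3 h of dTAG13 in each line and batch, with ticks at the number tested. By number of genes, ATF4 and CHOP partners extend furthest to the right in each panel, up to 10 of 13 in the N211del line of batch 2. The lists differ in size, and in that panel 7 of 8 transporter genes and 49.7% of all genes were higher. The tRNA synthetase list, which includes XPOT, holds more lower than higher calls in 4 of the 5 panels.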

How the data were processed

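TT-seq was done on 12 groups of 2 libraries, 12 libraries per batch. The authors deposited 1 table per library with a value per gene named FPKM per the file headers. Dividing out gene length gave whole numbers within 0.02 for nearly all values, in batch 2 after also dividing by 1 factor per library, so batch 1 FPKM values as deposited are not scaled by depth. The lengths so found had a median of 33609.5 bp, introns included. The submitters' processing notes name the aligner STAR 2.7.5c with Trim Galore 0.6.6, Picard 2.23.3, SAMtools 1.9 and DESeq2 1.26.0, and the builds hg19 and mm10 with no roles. The labels' protocols describe a stranded kit, and whether counting used strand is among the details not given in the sources used here.

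Genes with a mean of at least 0.1 were tested on log2(value + 0.1) with limma 3.58.1 in R 4.3.3 (trend and robust empirical Bayes, 1 fit per batch, two-sided, Benjamini-Hochberg over all genes, called under 0.05). Fold changes are on that log2(value + 0.1) scale, which understates the change of low genes. The 18 contrasts were 9 responses, 5 differences of responses and 4 comparisons of lines without dTAG13. Replicate pairs were compared by chi-square over genes with at least 10 units per pair, and a mean of up to 1.05 was taken as counting noise. Both libraries of such a pair were kept in the fit, and averaging them was an alternative. Figures and tables were made with Python 3.11.15, pandas 2.3.3, numpy 2.4.6, numba 0.67.0 and matplotlib 3.10.9. The limma script was tested on simulated data with known changes.

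The members and gene lists were chosen with earlier results of these data known. Named list genes were drawn from those with the largest called rise or fall in each list at 3 h, and the 5 genes most like a member from genes with a mean of at least 1. One gene of those nearest to SESN2 is not reported here. Alternatives were other pseudocounts, filters and scalings, a replicate block, fewer libraries and both batches in 1 fit. The voom fit on whole-number units, the averaged pairs and the batch difference were added after the data were seen.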

Additional observations from a re-analysis of the deposited data

Results flagged for a closer look

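The response to dTAG13 differed between lines in 18 of 30 tests of a member, each by limma on the difference itself at an adjusted p under 0.05. Values are differences of log2 fold changes. After 3 h in batch 1, INTS11 minus INTS8 gave 4, which were ATF4 at 0.31, DDIT4 at −0.58, SESN2 at −0.62 and CHAC1 at −0.64. INTS8 minus N211del gave 3, with DDIT4 at 0.77, CHAC1 at 0.78 and TRIB3 at −0.43. INTS11 minus N211del in batch 2 gave 5 at 1 h, with DDIT4 at −1.62, SESN2 at −0.68, TRIB3 at −0.49, CHAC1 at −0.46 and XBP1 at −0.40. At 3 h it gave 6, with ATF4 at 0.15, DDIT4 at −1.92, SESN2 at −0.73, TRIB3 at −0.46, CHAC1 at −0.53 and XBP1 at −0.31. The 1 h and 3 h tests share their 0 h libraries.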

How the results depend on the processing

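Over 108 member results, 1376 of 1548 alternative values kept direction and side of the threshold. Leaving aside the fit of both batches in 1, 52 of 74 calls held in every alternative and 22 were lost at least once. Reversals numbered 40, and where no value below shows it the cause was not tested. With each library centred, and then by voom on whole-number units, the values that changed sign were, for INTS11 minus N211del against DMSO, SESN2 at 0.04 and 0.06, TRIB3 at 0.06 and 0.08 and XBP1 at 0.29 and 0.32. XBP1 was 0.01 under both for INTS8 minus N211del, and −0.05 and −0.01 in N211del at 1 h. From 1 to 3 h in INTS11, CHAC1 was 0.00 and 0.01, XBP1 0.10 and 0.11 and, by voom, TRIB3 0.01. From 1 to 3 h in N211del, ATF4 was 0.08 and 0.07, TRIB3 0.02 and 0.01, CHAC1 0.12 and 0.10 and XBP1 0.06 and 0.04. Both batches in 1 fit gave CHAC1 −0.07 for INTS11 at 3 h, and for N211del DDIT4 0.57, CHAC1 0.12 and XBP1 0.05, as means of 2 responses that differ in sign.

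Genes called from 1 to 3 h were 192 in INTS11 and 1333 in N211del on centring, which also called 4 members for INTS11 minus N211del against DMSO and 1 from 1 to 3 h in INTS11. Voom called the same numbers of members in these and 2 from 1 to 3 h in N211del, as did a filter at a mean of 1. Genes called by voom were 3033 for INTS11 minus INTS8 and 1346 for INTS8 minus N211del. Averaging the pairs within counting noise leaves fewer samples. It gave 1370 genes for INTS11 against DMSO, 904 for INTS11 minus INTS8, 73 for INTS8 minus N211del and 1352 for INTS11 minus N211del. Between lines with DMSO it gave 1225 (INTS8, INTS11) and 2718 (N211del, INTS8). In batch 2 it gave 2324 for INTS11 at 3 h, 1959 for INTS11 minus N211del at 3 h, and from 1 to 3 h 0 genes in INTS11, and 1021 genes and 0 members in N211del. Fitting only the libraries named called 5 members for INTS8 minus N211del, 1 gene from 1 to 3 h in INTS11 and 0 members in N211del.

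Leaving out 1 library gave 1686 to 2033 genes for INTS11 against DMSO, 181 to 2522 for INTS8 minus N211del, and from 1 to 3 h 1 to 949 in INTS11 and 1391 to 1764 in N211del. Members called ranged from 2 to 4 for INTS11 in each response to dTAG13, 0 to 1 from 1 to 3 h in N211del and 0 to 2 for INTS11 minus N211del against DMSO. Sign changes lay within ranges of −0.02 to 0.04 (ATF4, N211del and INTS8 with DMSO), −0.01 to 0.08 (ATF4, INTS11 minus N211del at 1 h), 0.00 to 0.29 for CHAC1 and −0.08 to 0.07 for XBP1 (INTS11 minus N211del against DMSO), −0.08 to 0.05 (TRIB3, N211del at 1 h) and, from 1 to 3 h, −0.20 to 0.00 (CHAC1, INTS11), −0.23 to 0.17 (CHAC1, N211del), −0.04 to 0.03 (XBP1, INTS11) and −0.07 to 0.12 (DDIT4, INTS11).

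The replicate numbers did not pair the libraries (correlations of same-numbered deviations −0.10 to 0.08). The replicate block called 2 members from 1 to 3 h in N211del, with TRIB3 at −0.13, and ATF4 at −0.23 for INTS8 minus N211del, and changed no other member's call. It called 2523 genes for INTS11 against DMSO and 718 for INTS8 minus N211del. Of 432 list counts 37 moved by over 1.5 times, 29 of them on centring. With 2 libraries per group, small differences cannot be told from library spread.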
